A study of Mus musculus with 14 samples.

Results

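The kidney's water channels, the aquaporins Aqp1, Aqp2, Aqp3, Aqp4, Aqp7 and Aqp11, were examined together with the 3 subunits of the epithelial sodium channel (ENaC), Scnn1a, Scnn1b and Scnn1g, and the vasopressin V2 receptor Avpr2. These 10 genes were taken by symbol from the 49584 genes of the expression table. Mouse kidney RNA had been sequenced in 14 libraries of 4 groups: Ripk4 WT untreated (n = 3), Ripk4 cKO untreated (n = 3), WT after cisplatin (n = 4) and cKO after cisplatin (n = 4). The treated mice had been given 15 mg/kg of cisplatin, a DNA-crosslinking platinum drug that injures the proximal tubule, by injection into the peritoneum, and kidneys were taken 4 days later. The product of Ripk4 is a kinase of the RIP family, and cKO was read as its conditional knockout. The sources used here do not give the Cre driver, so it is not known which kidney cells lost the gene, nor do they give age, sex, strain or the kidney region. Untreated mice are not described as having received vehicle, so drug and injection cannot be told apart. Nothing in the labels says that the libraries of a group came from separate animals, and p-values therefore measure the spread between libraries.

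Aquaporins are membrane pores for water, and some also pass glycerol. Most filtered water is taken back in the proximal tubule and the thin descending limb, where Aqp1 lines both faces of the cell. Later, in the principal cells of the collecting duct, vasopressin binds Avpr2, raises cAMP and brings Aqp2 to the apical membrane, while Aqp3 and Aqp4 let the water out on the blood side. In mouse kidney Aqp4 is also found in the straight part of the proximal tubule. Sodium enters the same principal cells through ENaC, a channel of an alpha (Scnn1a), a beta (Scnn1b) and a gamma (Scnn1g) subunit that aldosterone stimulates. Aqp7, a glycerol channel, sits in the brush border of the straight proximal tubule, and Aqp11 is an intracellular aquaporin of the proximal tubule whose loss causes cystic kidneys in mice.

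In mm10 coordinates as the table gives them, Aqp1 lies at chr6:55336432-55348555 on the plus strand, Aqp2 at chr15:99579056-99584545 (plus) and Aqp11 at chr7:97724006-97738289 (minus). Aqp7 (chr4:41033074-41048139) and Aqp3 (chr4:41092722-41098183) lie near each other on the minus strand of chromosome 4. The ENaC genes Scnn1g (chr7:121734479-121768475) and Scnn1b (chr7:121865038-121918514) likewise lie near each other on the plus strand of chromosome 7, whereas Scnn1a is at chr6:125320659-125344943 (plus). Avpr2 is at chrX:73892102-73895502 (plus). In GENCODE M21 the exons of the other 9 genes share 0 bases with any other gene, but 2347 of the 2886 exon bases of Avpr2 are also exon of Arhgap4 on the opposite strand.

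Promoter sequence (RefSeq, GRCm38.p6) was matched for 8 of the 10 genes. The 3 shown belong to Aqp2, the vasopressin-regulated channel, and to Aqp1 and Aqp11, the pair of proximal aquaporins that differed between genotypes after cisplatin as described below. They are chr15:99578806-99579054 on the plus strand (Aqp2), chr6:55336049-55336298 on the plus strand (Aqp1) and chr7:97738290-97738497 on the minus strand (Aqp11), each stopping before the annotated transcript and each read 5′ to 3′. Capitals mark motif matches on either strand. The capitals CGTCA in the Aqp2 promoter are the reverse complement of TGACG, the half-site of a cAMP response element, which is the DNA element that the kinase cascade below Avpr2 acts on. The capitals TTATCT in the same promoter are the reverse complement of AGATAA, the binding motif of GATA factors. In the Aqp1 promoter GGGCGG marks a GC box.
Aqp2: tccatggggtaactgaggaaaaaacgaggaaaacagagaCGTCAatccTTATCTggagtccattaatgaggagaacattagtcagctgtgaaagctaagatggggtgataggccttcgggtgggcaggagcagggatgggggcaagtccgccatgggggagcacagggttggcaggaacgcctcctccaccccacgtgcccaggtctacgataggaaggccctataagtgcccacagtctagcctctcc
Aqp1: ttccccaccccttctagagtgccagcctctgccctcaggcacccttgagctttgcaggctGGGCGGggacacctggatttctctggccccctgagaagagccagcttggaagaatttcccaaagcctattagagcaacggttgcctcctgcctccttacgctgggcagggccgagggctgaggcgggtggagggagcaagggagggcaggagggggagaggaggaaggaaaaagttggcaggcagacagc
Aqp11: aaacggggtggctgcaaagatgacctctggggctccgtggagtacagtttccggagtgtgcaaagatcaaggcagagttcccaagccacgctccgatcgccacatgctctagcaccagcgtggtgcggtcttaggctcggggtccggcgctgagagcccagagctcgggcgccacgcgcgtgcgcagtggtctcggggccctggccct
Motifs were searched in the 250 bases upstream of each start on both strands, and the marked matches do not overlap each other. TGACG or its reverse complement occurred in 17.8% of 32851 such windows and AGATAA in 9.99%. Among the 8 genes TGACG was found in Aqp2 alone, and AGATAA in Aqp2 and Aqp7. GGGCGG, held by 32.7% of windows, was in Aqp1, Aqp3, Scnn1b and Scnn1g, and TATAAA, held by 12.4%, was in Aqp3 and Avpr2. GTTAAT (an HNF1 half-site), held by 6.43% of windows, was in 0 of the 8. A match is a run of letters and does not show binding.

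Expression values are FPKM, reads scaled by gene length and library depth, and the libraries held 36.7 to 77.0 M assigned reads. Ripk4 itself read 7.18, 8.11 and 8.51 FPKM in the untreated WT libraries and 3.68, 3.98 and 4.61 in the untreated cKO ones. After cisplatin it read 7.61, 10.6, 13.3 and 9.0 in WT and 5.32, 5.62, 9.09 and 3.61 in cKO, so that the cKO library numbered 3 lay inside the WT range. One treated library stood apart from its group. In cKO cisplatin replicate 4, the summed level of 10 tubular injury genes (Havcr1, Lcn2, Krt20 and others) was 593 FPKM, inside the untreated range of 453 to 661, against 1966 to 3892 in the other cKO cisplatin libraries and 10560.4 to 17953 in WT cisplatin. Its 8 red cell genes summed to 811 FPKM, where the other 7 treated libraries had 19.4 to 31.2 and the untreated ones 566 to 1175. For the 10 genes, their ratios and their marker differences, differences between the treated genotypes described as called or without overlap are given with and without this library. Counts over gene lists, between the treated genotypes and for cisplatin in cKO, are given with it only. Without it the comparison of treated genotypes called 2882 genes, against 4088 with it. Cisplatin in cKO called 286 genes without it, against 3 with it. The 2 cisplatin libraries numbered 1 were low in 13 endothelial genes, with sums of 181 (WT) and 216 (cKO) FPKM against 307 to 406 in the other 12. The proximal tubule list had all 20 markers above the detection filter, so that the kidney label was met.

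All of the genes but Avpr2 were expressed well above the filter of a mean of 0.5 FPKM in every library. Aqp1 was the most abundant per length, at 458 ± 59.5 FPKM (SD, n = 3) in untreated WT kidneys. Aqp2 followed at 194 ± 54.6 and Aqp3 at 121 ± 5.71 FPKM. Scnn1a (45.9 ± 6.92), Aqp11 (36.4 ± 3.37), Scnn1b (22.3 ± 1.08), Aqp4 (21.1 ± 5.77), Aqp7 (20.9 ± 1.73) and Scnn1g (12.5 ± 0.718 FPKM) were lower. Untreated cKO kidneys showed nearly the same levels. In none of the 9 did the untreated genotypes separate: the libraries overlapped for each, the largest log2 difference was that of Aqp4 at -0.14 ± 0.30 (SE, cKO minus WT), and 0 of 9 passed the limma test at an adjusted p of 0.05. This comparison called 0 of 15193 genes (0%), with 123 genes, none of them among the 9, at an unadjusted p under 0.05. Without drug 6.26% of genes did not overlap between genotypes, and 0 of the 9 were among them.

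After cisplatin, Aqp1, Aqp4 and Aqp11 fell in WT kidneys, whereas 0 of the 9 genes were called in cKO kidneys. Of all 15193 genes tested, 34.4% were called in the WT comparison (12.1% lower after the drug, 22.3% higher) and 0.0197% in the cKO comparison, where 1754 genes and 3 of the 9 had an unadjusted p under 0.05. Without cKO cisplatin replicate 4 the cKO comparison called 1.88% of genes (1.13% higher and 0.757% lower after the drug) and again 0 of the 9. Between genotypes after cisplatin, Aqp1, Aqp4, Aqp11 and Scnn1a were higher in cKO than in WT, in a comparison that called 26.9% of genes, 8.77% of them in that direction and 18.1% in the other. The share of genes whose libraries did not overlap between the groups was 38.9% for cisplatin in WT, 12.2% for cisplatin in cKO and 21.2% for genotype after cisplatin, and among the 9 genes there were 5, 3 and 3. Ordered by group mean, neighbouring groups overlapped for each of the 10 genes except Aqp11, in which both cisplatin groups stood apart from their neighbours, and Scnn1b, in which WT cisplatin stood above WT untreated. These comparisons use the same libraries in different pairs, so their differences are not independent of each other. In bulk kidney RNA, fewer cells of a type and less RNA per cell cannot be told apart.

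**Figure D1:**
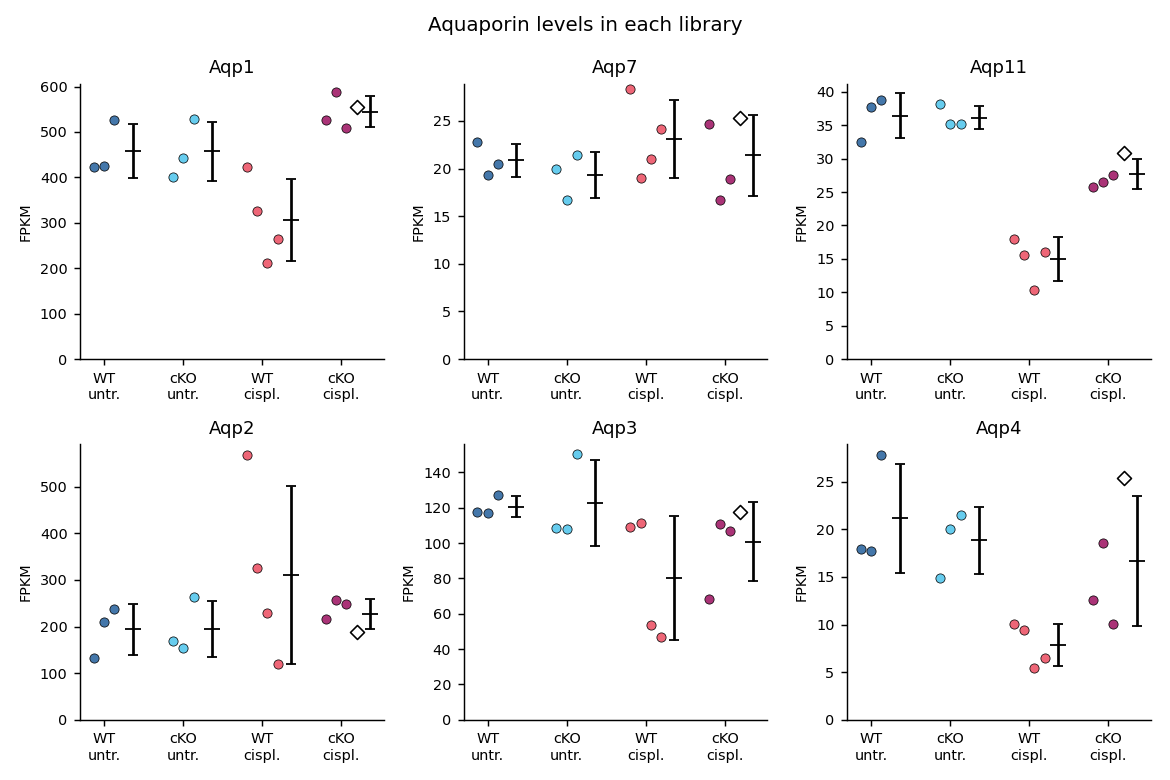
FPKM of the 6 aquaporins (y axes, linear, from 0) in each of the 14 libraries by group, with the mean and SD of each group as a black dash and bars and cKO cisplatin replicate 4 as a white diamond. Aqp11 separates WT cisplatin (10.4 to 17.9), cKO cisplatin (25.8 to 30.8) and both untreated groups (32.6 to 38.8), while Aqp7 overlaps throughout and Aqp2 spreads from 121 to 568 in WT cisplatin alone.

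Aqp11, the intracellular aquaporin of the proximal tubule, showed the clearest separation. The untreated libraries read 32.6, 37.8 and 38.8 FPKM in WT and 38.2, 35.1 and 35.2 in cKO. Cisplatin libraries read 17.9, 15.6, 10.4 and 16.0 FPKM in WT and 25.8, 26.6, 27.6 and 30.8 in cKO. All 4 treated WT libraries lay below all 4 treated cKO libraries, and these lay below all 6 untreated ones. In WT the level fell from 36.4 ± 3.37 to 15.0 ± 3.23 FPKM, a log2 change of -1.25 ± 0.15 (SE, limma adjusted p = 5.85e-05). In cKO it went from 36.2 ± 1.76 to 27.7 ± 2.23 FPKM, a log2 difference of -0.38 ± 0.15 that was not called (limma adjusted p = 0.322), although the libraries did not overlap (exact permutation p = 0.0571, the smallest that 4 against 3 allows). Treated cKO kidneys held 1.85 times the WT level, 0.87 ± 0.13 on the log2 scale (limma adjusted p = 7.45e-04), and 0.82 without cKO cisplatin replicate 4 (limma adjusted p = 0.00322). The difference between the cisplatin responses, cKO minus WT, was 0.87 ± 0.21 (limma adjusted p = 0.0342), the one such difference called among the 9 genes where 4.06% of all genes were called, 1.41% with a higher and 2.65% with a lower cKO response. It was called in 9 of 21 alternatives, with values from 0.72 to 1.01 and adjusted p from 0.00225 to 0.0986. The call was lost without any 1 of the 6 untreated libraries, without WT cisplatin replicate 4, without cKO cisplatin replicate 2, 3 or 4 (0.82, adjusted p = 0.0665 for the last), without the filter and with median-of-ratios scaling.

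Aqp1, the constitutive water channel of the proximal tubule and descending limb, fell less. Untreated levels were 423, 424 and 527 FPKM in WT and 402, 442 and 530 in cKO. With cisplatin they were 423, 327, 212 and 265 FPKM in WT and 527, 588, 510 and 555 in cKO. The 4 treated WT libraries were below the 3 untreated ones, the nearest by less than 1 FPKM, and the 4 treated cKO libraries were all above the treated WT ones. In WT the mean was 458 ± 59.5 FPKM without and 307 ± 90.7 with drug, a log2 change of -0.62 ± 0.19 (limma adjusted p = 0.0222). That call was lost in 5 of 22 alternatives, where the adjusted p reached 0.0506 without the filter on low values, 0.0782 with only the groups compared in the fit, 0.10 without WT untreated replicate 3, 0.0542 without WT cisplatin replicate 3 and 0.0569 without WT cisplatin replicate 4. In cKO the log2 difference was 0.26 ± 0.19 (limma adjusted p = 0.659), from 458 ± 65.4 to 545 ± 34.1 FPKM. Treated cKO kidneys held 1.78 times the treated WT level, a log2 difference of 0.87 ± 0.17 (limma adjusted p = 0.00326, called in 22 of 22 alternatives). Ordered by mean, the groups ran from cKO cisplatin through WT untreated and cKO untreated to WT cisplatin, and each pair of neighbours in that order overlapped. Between the 2 responses Aqp1 differed by 0.88 ± 0.27, short of a call (limma adjusted p = 0.0821).

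Aqp1 is also made by red cells and by the descending vasa recta. All 6 red cell genes that passed the filter fell in WT after cisplatin, where 12.1% of all genes fell. Their list's sum went from 670 to 972 FPKM in untreated WT libraries to 19.4 to 26.7 in treated ones, with Hba-a2 and Hbb-bt at 0 in every treated WT library. In treated cKO libraries the red cell sum was 20.1, 31.2 and 30.2 FPKM in replicates 1 to 3 and 811 in replicate 4, while Aqp1 in replicate 4 (555 FPKM) lay between replicates 1 and 2. Without replicate 4, Aqp1 remained higher in treated cKO than in treated WT kidneys (log2 difference 0.86, limma adjusted p = 0.0107). Of 13 endothelial genes, 1 (Kdr) fell and 0 rose in WT after cisplatin, against 12.1% and 22.3% of all genes. Leaving out both libraries with low endothelial sums gave Aqp1 log2 differences of -0.79 for cisplatin in WT (limma adjusted p = 0.00233) and 1.06 for genotype after cisplatin (limma adjusted p = 6.04e-04), and the difference of responses of 1.06 was then called (limma adjusted p = 0.0118).

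Aqp7, the glycerol channel of the straight proximal tubule, was the proximal member that did not separate any groups. It read 22.8, 19.4 and 20.5 FPKM in untreated WT and 19.95, 16.7 and 21.4 in untreated cKO libraries. The treated libraries read 28.3, 19.0, 21 and 24.2 FPKM in WT and 24.7, 16.7, 18.9 and 25.3 in cKO. Libraries of all 4 groups overlapped. The log2 differences were 0.13 ± 0.16 for cisplatin in WT, 0.13 ± 0.16 for cisplatin in cKO and -0.11 ± 0.15 for genotype after cisplatin, with limma adjusted p of 0.575, 0.835 and 0.618. Adipocytes also make Aqp7, and of the 8 adipocyte genes that passed the filter 1 (Lpl) fell in WT, where 12.1% of all genes fell. The other 7 were not called, and the list's median log2 difference was 0.45 against 0.10 over all genes. The mean log2 level of the 9 adipocyte genes was 1.89 to 2.18 in WT untreated and 1.75 to 3.24 in WT cisplatin libraries. The sum of the 9 adipocyte genes was 83.5 to 194 FPKM in WT cisplatin libraries and 203 to 361 in cKO cisplatin ones, against 289 to 538 in untreated ones, and its part in the Aqp7 level was not tested.

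Ratios between the proximal members were then compared. The ratio of Aqp7 to Aqp1 was 0.0461 ± 0.00743 in untreated WT, 0.0788 ± 0.0195 in treated WT and 0.0395 ± 0.00853 in treated cKO kidneys. Treated cKO ratios were all below treated WT ones, 0.503-fold (exact permutation p = 0.0286, the smallest that 4 against 4 allows, and 0.2 adjusted over the 7 ratios compared). On the log2 scale that difference was -0.99, and -1.07 without cKO cisplatin replicate 4. Aqp1 but not Aqp7 was called between these groups (log2 differences 0.87 and -0.11), so the ratio is not independent of the Aqp1 result. Aqp11 to Aqp1 was lower after cisplatin in both genotypes, 0.0799 ± 0.00810 against 0.0499 ± 0.00761 in WT and 0.0803 ± 0.0143 against 0.0509 ± 0.00480 in cKO. The libraries of treated and untreated kidneys did not overlap in either genotype for this ratio (exact permutation p = 0.0571 in each, which 4 against 3 cannot go below, and 0.1 in WT and 0.267 in cKO after adjustment). Between treated genotypes it differed by a log2 value of 0.04 (exact permutation p = 0.8).

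These shifts were set beside 20 markers of the proximal tubule. In WT after cisplatin 14 of the 20 fell and 2 rose, with a list median of -1.24 against 0.10 over all genes, and between treated genotypes 14 were higher and 2 lower in cKO, with a median of 1.12 against -0.11. Over all genes 12.1% fell and 22.3% rose in WT, and 8.77% were higher and 18.1% lower in treated cKO. Slc22a30, an organic anion carrier, Cyp2e1, a cytochrome P450, Slc7a13, an amino acid carrier, and Ass1, an enzyme of arginine synthesis, changed by -2.54, -2.20, -3.12 and -1.65 on the log2 scale in WT. Beside the mean of the 20 markers, Aqp1 was higher after cisplatin in both genotypes, by 0.59 in WT and 0.41 in cKO on the log2 scale, with no overlap of libraries (exact permutation p = 0.0571 each, the smallest possible). For Aqp7 the same difference was 1.34 in WT, without overlap, and -1.18 between treated genotypes, where all 4 cKO libraries lay below all 4 WT ones (exact permutation p = 0.0286), and -1.22 without cKO cisplatin replicate 4. For Aqp11 it was -0.04 in WT with overlapping libraries (exact permutation p = 0.743) and -0.22 in cKO without overlap (exact permutation p = 0.0571, the smallest possible). Between treated genotypes Aqp1 differed by -0.20 against the markers (exact permutation p = 0.229) and Aqp11 by -0.21 (exact permutation p = 0.143). Libraries overlapped for both. Adjusted over the 9 genes so compared, the exact permutation p was 0.103 for Aqp1 and Aqp7 in WT. It was 0.129 for Aqp1 and Aqp11 in cKO and 0.0857 for Aqp7 between treated genotypes. On this scale a value near 0 means that gene and markers shifted by the same amount. The marker list's own level was 7.34 to 7.86 (mean log2) in treated WT libraries against 8.51 to 8.82 in treated cKO and 8.79 to 8.84 in untreated ones.

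**Figure D2:**
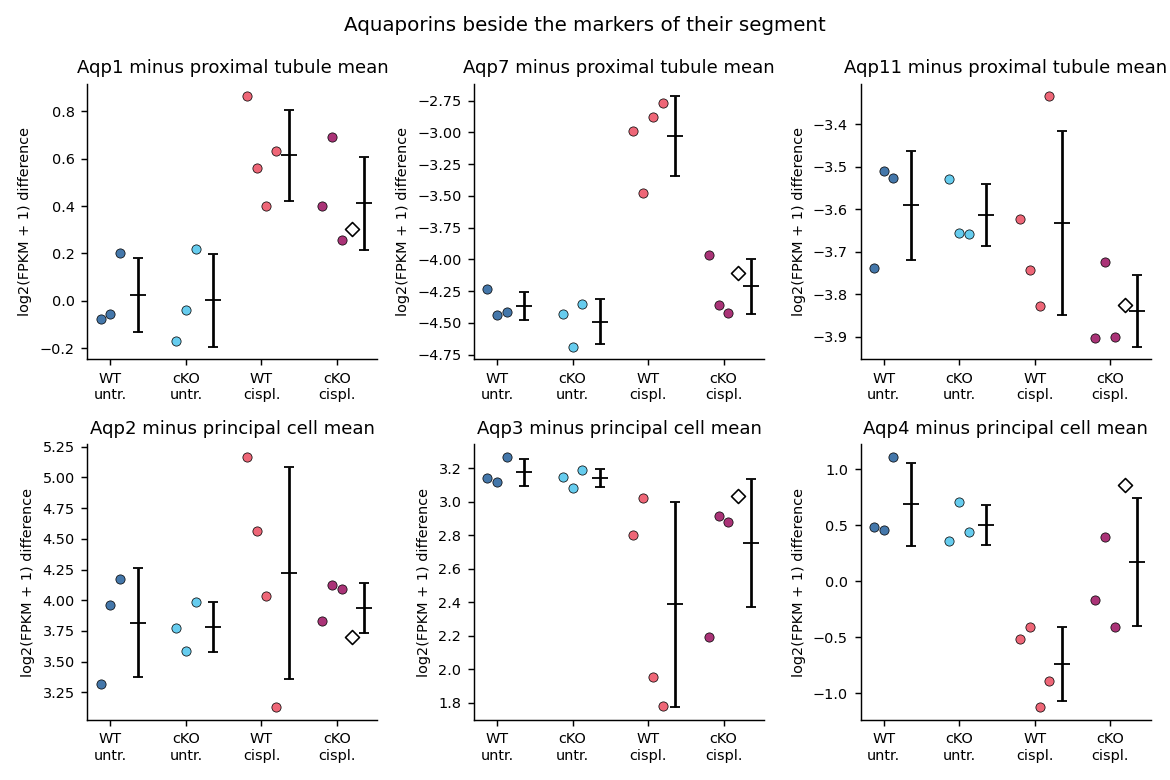
Level of each aquaporin minus the mean of the markers of 1 segment, in log2(FPKM + 1), per library and group (linear axes that do not start at 0, mean and SD as black dash and bars, cKO cisplatin replicate 4 as a white diamond). Aqp1, Aqp7 and Aqp11 are set against proximal tubule markers and Aqp2, Aqp3 and Aqp4 against principal cell markers. Aqp4 is also found in the straight proximal tubule. Aqp7 stands 1.34 higher against the proximal tubule mean in WT cisplatin than in WT untreated libraries, and Aqp4 stands 1.42 lower against the principal cell mean.

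Among the collecting duct channels, Aqp4, a basolateral water channel whose gene lies at chr18:15389394-15403684 on the minus strand, fell in WT kidneys. It read 17.9, 17.7 and 27.8 FPKM in untreated WT and 14.9, 20.05 and 21.5 in untreated cKO libraries. Treated libraries read 10.1, 9.42, 5.46 and 6.52 FPKM in WT and 12.6, 18.6, 10.1 and 25.4 in cKO. All treated WT libraries were below all untreated ones, and 3 of the 4 treated cKO libraries were above all treated WT ones, the library numbered 3 lying just below the highest of them. In WT the mean went from 21.1 ± 5.77 to 7.87 ± 2.22 FPKM, a log2 change of -1.32 ± 0.29 (limma adjusted p = 0.00302). In cKO it went from 18.8 ± 3.48 to 16.6 ± 6.84 FPKM (log2 difference -0.23 ± 0.29, limma adjusted p = 0.825). The difference between these responses, cKO minus WT, was 1.09 ± 0.40 and was not called (limma adjusted p = 0.139). It was called in 0 of 21 alternatives. Treated cKO kidneys held 2.12 times the WT level, 0.95 ± 0.26 on the log2 scale (limma adjusted p = 0.0185), which became 0.73 with an adjusted p of 0.0569 without cKO cisplatin replicate 4, its highest library. The call was also lost with only the groups compared in the fit (adjusted p = 0.0555), without WT cisplatin replicate 3 (0.0615) and without WT cisplatin replicate 4 (0.0536). Skeletal muscle makes Aqp4 too. The 8 muscle genes summed to 1.56 to 3.07 FPKM over all libraries and Myh4 was at 0 in each.

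Aqp3, the basolateral partner of Aqp2 that also passes glycerol, was split within the treated WT group. Untreated levels were 118, 117 and 127 FPKM in WT and 109, 108 and 151 in cKO. Treated WT libraries read 109, 111, 53.5 and 46.7 FPKM, and treated cKO libraries read 68.2, 111, 107 and 118. All 4 treated WT libraries were below all 3 untreated ones, but replicates 1 and 2 by a small margin and replicates 3 and 4 by a wide one. The log2 difference was -0.69 ± 0.29 and was not called (limma adjusted p = 0.0803). It was called in 5 of 22 alternatives: with quantile normalization (limma adjusted p = 0.0450), with array weights (0.00194), without WT cisplatin replicate 1 (0.0252) or 2 (0.0287) and without both cisplatin libraries numbered 1 (0.0165). Values over all alternatives ran from -0.99 to -0.47. In cKO the log2 difference was -0.29 ± 0.29 (limma adjusted p = 0.770), and between treated genotypes it was 0.41 ± 0.27 (limma adjusted p = 0.284). The latter was called in 2 of 22 alternatives, at 0.76 with array weights (limma adjusted p = 0.0184) and 0.76 without both cisplatin libraries numbered 1 (limma adjusted p = 0.0350).

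Aqp2, the vasopressin-regulated apical channel, was not called in any comparison and varied most in treated WT kidneys. It read 133, 210 and 239 FPKM in untreated WT and 168, 154 and 263 in untreated cKO libraries. After cisplatin it read 568, 326, 230 and 121 FPKM in WT and 215, 258, 249 and 188 in cKO. The treated WT libraries held both the highest and the lowest value of all 14. Their mean of 311 ± 191 FPKM stood against 194 ± 54.6 untreated, a log2 difference of 0.51 ± 0.39 (limma adjusted p = 0.351), and without WT cisplatin replicate 4 the difference was 0.89 and called (limma adjusted p = 0.0492). That was the 1 call in 22 alternatives. Without both cisplatin libraries numbered 1 the WT difference was 0.15 (limma adjusted p = 0.758), and with array weights it changed sign to -0.09 and was not called. In cKO the means were 195 ± 59.2 and 228 ± 31.9 FPKM (log2 difference 0.25 ± 0.39, limma adjusted p = 0.871). The sign of the difference between treated genotypes, -0.25 ± 0.36 (limma adjusted p = 0.658), was not stable, since it ran from -0.63 to 0.40 over the alternatives.

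The ratio of Aqp3 to Aqp2 was 0.657 ± 0.195 in untreated WT and 0.288 ± 0.0910 in treated WT kidneys. Every treated WT ratio was below every untreated WT one (exact permutation p = 0.0571, the smallest possible, and 0.1 adjusted over 7 ratios). In cKO the ratio was 0.641 ± 0.0656 untreated and 0.450 ± 0.128 treated, with overlapping libraries (exact permutation p = 0.114).

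The levels were also set beside markers of principal cells. Of 15 such markers, 2 (Hoxb7, a developmental transcription factor, and Kcne1, a potassium channel subunit) rose and 1 (Rhbg, an ammonia transporter) fell in WT after cisplatin, with a list median of 0.05 against 0.10 over all genes. The shares over all genes were 22.3% up and 12.1% down. Hoxb7 went from 28.5 ± 0.149 to 42.4 ± 3.45 FPKM and Kcne1 from 5.60 ± 0.401 to 10.7 ± 1.07. Against the mean of the 15 markers, Aqp4 was 1.42 lower on the log2 scale in treated than in untreated WT kidneys (exact permutation p = 0.0571, the smallest possible). Between treated genotypes Aqp4 was 0.91 higher in cKO on this scale, with 4 of 4 libraries above all WT ones (exact permutation p = 0.0286, and 0.0857 over the 9 genes so compared), and 0.68 higher without cKO cisplatin replicate 4, again without overlap (exact permutation p = 0.0571, the smallest possible). Aqp3 was lower against these markers in both genotypes after cisplatin, by -0.79 in WT and -0.39 in cKO, without overlap, whereas Aqp2 overlapped in each comparison. Aqp4 is also found in the straight proximal tubule but was set beside principal cell markers only. Its own log2 change in WT was -1.32, and the median of the proximal tubule list was -1.24. In which cells Aqp4 changed was not tested.

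**Figure D3:**
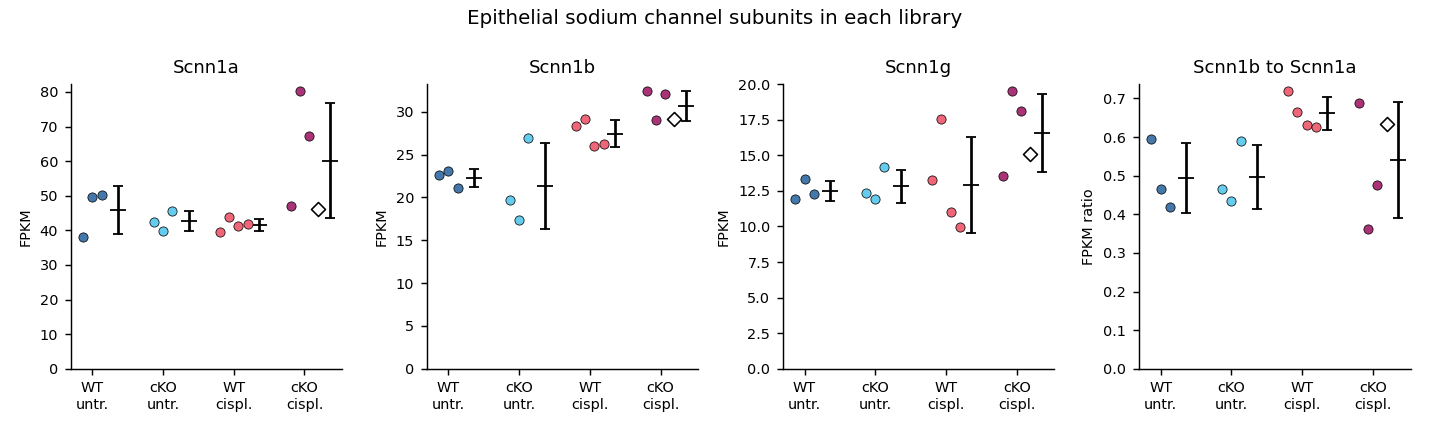
FPKM of the 3 ENaC subunits and the ratio of Scnn1b to Scnn1a (y axes, linear, from 0) in each library by group, with the mean and SD as black dash and bars and cKO cisplatin replicate 4 as a white diamond. Scnn1a reaches 80.3 and 67.1 in 2 cKO cisplatin libraries while the WT cisplatin libraries stay between 39.4 and 43.8.

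Of the ENaC subunits, Scnn1a, the alpha subunit that the other subunits need to form a working channel, was higher in treated cKO than in treated WT kidneys. It read 38.0, 49.7 and 50.2 FPKM in untreated WT and 42.4, 39.8 and 45.7 in untreated cKO libraries. After cisplatin the WT libraries were close together at 39.4, 43.8, 41.1 and 41.8 FPKM, and the cKO libraries read 47.1, 80.3, 67.1 and 46.0. All 4 treated cKO libraries were above all 4 treated WT ones, 2 of them by a small margin. The means were 60.1 ± 16.6 and 41.6 ± 1.83 FPKM, a log2 difference of 0.48 ± 0.16 (limma adjusted p = 0.0369), and 0.60 without cKO cisplatin replicate 4 (limma adjusted p = 0.0198). This call held in 14 of 22 alternatives. It was lost without WT cisplatin replicate 1, 2, 3 or 4 (adjusted p from 0.0502 to 0.0790, log2 difference 0.46 to 0.51), without cKO cisplatin replicate 2 (0.33, adjusted p = 0.0906) or 3 (0.42, adjusted p = 0.0983), without the filter (adjusted p = 0.0744) and with only the groups compared in the fit (adjusted p = 0.0945). Cisplatin made a log2 difference of -0.13 ± 0.17 in WT (limma adjusted p = 0.589) and 0.45 ± 0.17 in cKO (limma adjusted p = 0.310). The difference of those responses, 0.58 ± 0.24, was not called (limma adjusted p = 0.184).

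Scnn1b, the beta subunit, was higher after cisplatin in both genotypes without passing the test. Its levels were 22.6, 23.1 and 21.1 FPKM in untreated WT and 19.7, 17.3 and 27.0 in untreated cKO libraries. With drug they were 28.4, 29.2, 26 and 26.2 FPKM in WT and 32.4, 29.1, 32.0 and 29.2 in cKO. Treated libraries were above all untreated ones of their genotype in 4 of 4 cases each. The log2 differences were 0.29 ± 0.12 in WT (limma adjusted p = 0.0818) and 0.53 ± 0.12 in cKO (limma adjusted p = 0.108), and the cKO one was called with array weights (0.62, adjusted p = 0.00832) and without cKO untreated replicate 3 (0.70, adjusted p = 0.0251). Leaving out that library also brought the WT difference to an adjusted p of 0.0225 through the shared estimate of spread. Between treated genotypes the log2 difference was 0.16 ± 0.11 (limma adjusted p = 0.333).

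Scnn1g, the gamma subunit, overlapped in all comparisons. It read 11.9, 13.3 and 12.3 FPKM in untreated WT and 12.3, 11.9 and 14.2 in untreated cKO libraries. Treated libraries read 13.3, 17.5, 11 and 9.94 FPKM in WT and 13.6, 19.5, 18.1 and 15.1 in cKO. Its log2 differences were 0.02 ± 0.17 for cisplatin in WT, 0.34 ± 0.17 for cisplatin in cKO and 0.35 ± 0.16 for genotype after cisplatin, with limma adjusted p of 0.950, 0.468 and 0.111. The last of these was called in 3 of 22 alternatives, at 0.51 with quantile normalization (limma adjusted p = 0.0381), 0.54 with array weights (0.0104) and 0.50 without WT cisplatin replicate 2 (0.0182).

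The subunits were not equal per length: in untreated WT kidneys the ratio of Scnn1b to Scnn1a was 0.493 ± 0.0908 and that of Scnn1g to Scnn1a 0.275 ± 0.0355. In treated WT kidneys Scnn1b to Scnn1a was 0.661 ± 0.0430, above all 3 untreated ratios (exact permutation p = 0.0571, the smallest possible, and 0.1 adjusted over 7 ratios). In treated cKO kidneys it was 0.541 ± 0.149 and overlapped with 0.497 ± 0.0823 in untreated ones. Against the 15 principal cell markers, Scnn1b was 0.19 higher on the log2 scale after cisplatin in WT and 0.43 higher in cKO, without overlap in either.

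**Figure D4:**
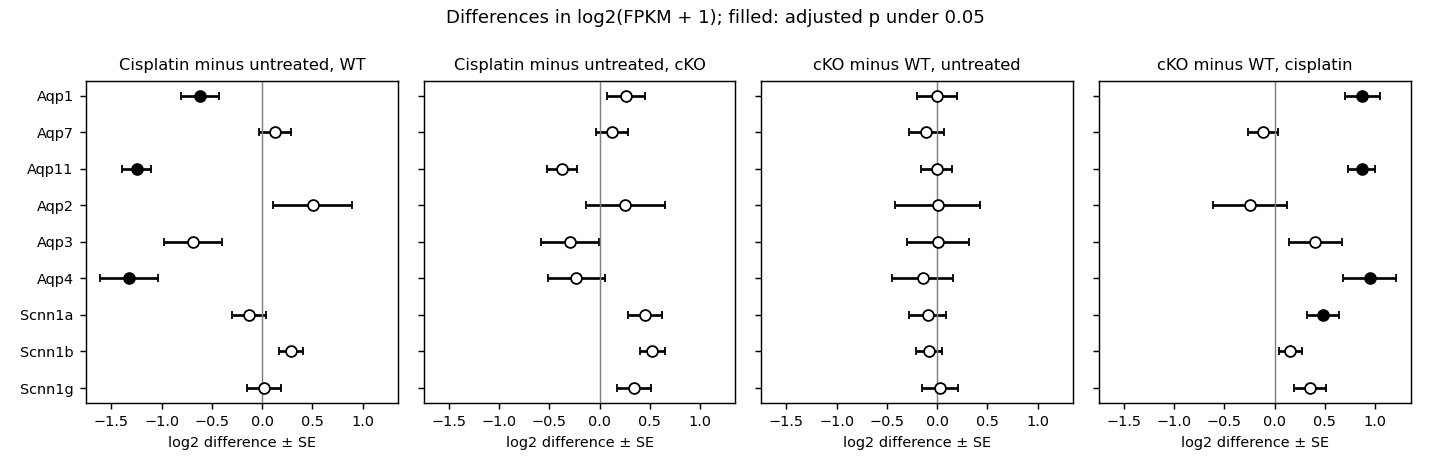
Log2 differences ± SE of the 9 tested genes in log2(FPKM + 1) for cisplatin in WT, cisplatin in cKO, genotype without drug and genotype after cisplatin, with filled points where the limma adjusted p is under 0.05. Filled points are Aqp1, Aqp11 and Aqp4 in the first comparison and Aqp1, Aqp11, Aqp4 and Scnn1a in the last, and there are none in the other two.

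Avpr2, the receptor that starts the vasopressin response, was near the limit of these libraries. It rested on 1 to 21 reads per library and did not reach the filter, so it was not among the 15193 genes tested. It read 0.10, 0.05 and 0.09 FPKM in untreated WT, 0.02, 0.06 and 0.03 in untreated cKO, 0.32, 0.20, 0.07 and 0.09 in treated WT and 0.02, 0.05, 0.10 and 0.02 in treated cKO libraries. The groups overlapped in all 4 pairs, and the exact permutation p was 0.0857 for genotype after cisplatin. In the fit without the filter that difference was -0.16 ± 0.06 on the log2(FPKM + 1) scale (limma adjusted p = 0.0935). Arhgap4, whose exons cover most of those of Avpr2 on the other strand, was at 2.31 ± 0.453 FPKM in untreated WT and 3.22 ± 1.25 in treated WT kidneys. Without a stated counter and strand setting, reads of the pair cannot be told apart, and the Avpr2 level itself is uncertain.

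Downstream of the receptor, 21 of 22 genes of the cAMP and water channel trafficking pathway passed the filter. In WT after cisplatin 5 rose and none fell, and between treated genotypes 4 of these 5 were lower in cKO and none higher. Over all genes 22.3% rose in WT, and 18.1% were lower in treated cKO than in treated WT kidneys. Rab11a, a small GTPase of recycling endosomes, went from 92.2 ± 4.91 to 133 ± 8.41 FPKM (log2 change 0.52 ± 0.07, limma adjusted p = 2.02e-04). Slc14a2, the vasopressin-regulated urea transporter, went from 15.8 ± 2.44 to 39.9 ± 15.3 FPKM (log2 change 1.23 ± 0.26, limma adjusted p = 0.00282). Stx4a, a syntaxin of vesicle fusion, rose from 40.1 ± 2.40 to 60.7 ± 11.4 FPKM, and Prkar1a, a regulatory subunit of protein kinase A, from 146 ± 5.30 to 182 ± 20.4. The adenylyl cyclase Adcy6 (21.4 ± 1.93 and 21.5 ± 2.90 FPKM) and the catalytic subunit Prkaca (58.4 ± 4.24 and 56.5 ± 4.01) were not called. The list's median log2 difference was 0.05 against 0.10 over all genes.

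Of 20 genes of aldosterone signalling and ENaC control, 19 passed the filter, 2 rose and 6 fell in WT after cisplatin, and between treated genotypes 7 were higher and 2 lower in cKO. The shares over all genes were 22.3% up and 12.1% down in WT, and 8.77% higher and 18.1% lower in treated cKO. St14 (matriptase), a membrane protease, rose from 28.3 ± 1.64 to 90.6 ± 13.7 FPKM (log2 change 1.64 ± 0.17, limma adjusted p = 2.57e-05), and Cnksr3, a scaffold of ENaC regulation, from 6.75 ± 0.512 to 11.9 ± 1.67. Among the genes that fell were Atp1b1, a beta subunit of the sodium pump, Usp2, a deubiquitinase, Wnk1, a kinase, Nr3c2, the mineralocorticoid receptor, and Prss8 (prostasin), a protease that activates ENaC. Usp2 went from 117 ± 19.7 to 63.4 ± 17.1 FPKM (log2 change -0.90 ± 0.20, limma adjusted p = 0.00350), and Prss8 from 273 ± 10.1 to 190 ± 48.0. In treated cKO kidneys the latter pair were at 123 ± 24.6 and 283 ± 16.8 FPKM. Sgk1, the aldosterone-induced kinase that stabilises ENaC, read 58.8 ± 18.1 and 136 ± 57.8 FPKM in WT and 70.8 ± 20.01 and 145 ± 76.5 in cKO, and was not called in WT (limma adjusted p = 0.0571). In cKO after cisplatin, where 0.0197% of all genes were called with cKO cisplatin replicate 4 included, 0 genes of either list were called.

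The 9 genes of the medullary osmotic response were all measured, and 1 rose and 1 fell in WT after cisplatin, where 22.3% of all genes rose and 12.1% fell. Akr1b3, aldose reductase, which makes the osmolyte sorbitol, went from 73.4 ± 7.29 to 28.5 ± 6.27 FPKM (log2 change -1.35 ± 0.28, limma adjusted p = 0.00215). In cKO it read 104 ± 38.8 and 37.6 ± 15.4 FPKM and was not called. Hspa4l, a heat shock protein, rose from 18.0 ± 0.896 to 27.5 ± 6.97 FPKM. Among the 6 remaining aquaporin genes, Aqp6 and Aqp8 passed the filter. Aqp8 rose in WT from 0.422 ± 0.489 to 1.71 ± 0.512 FPKM (log2 change 0.96 ± 0.22, limma adjusted p = 0.00431) and was at 0.365 ± 0.303 in treated cKO kidneys. Its untreated WT and treated cKO means lay below the 0.5 FPKM filter, so the treated WT libraries helped it to pass. The call of Aqp8 is therefore given as a description only. Aqp6, the aquaporin of acid-secreting intercalated cells, read 29.4 ± 1.62 and 42.1 ± 11.4 FPKM in WT and was not called (limma adjusted p = 0.0854).

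Markers of other segments and cells were counted against the 22.3% of all genes that rose and the 12.1% that fell in WT after cisplatin. In that comparison, 8 of 14 genes of the thick ascending limb and distal convoluted tubule fell and 1 rose, 4 of 13 intercalated cell genes fell and 2 rose, 2 of 10 thin limb genes fell and 5 rose, and 7 of 11 macrophage genes and 10 of 10 injury genes rose. One of the 8 urothelial genes that passed, Krt20, rose, and it is also an injury gene. In cKO after cisplatin, with cKO cisplatin replicate 4 included, 0.0197% of all genes and 0 genes of any of these lists were called. Without that library 1.88% of all genes were called, and the lists were not counted. With it, the median log2 difference of the 10 injury genes for cisplatin in cKO was 1.35, against 0.02 over all genes. The part of these changes in the aquaporin and ENaC levels was not tested.

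Over the 14 libraries the expression of Aqp1 was most like that of Klk1 (kallikrein 1), Echs1 (a mitochondrial enoyl-CoA hydratase) and Isoc2a, with Pearson r of 0.95, 0.95 and 0.94 on the log2 scale, and 0.84, 0.91 and 0.89 after the group means were taken out. For Aqp2 the leading genes were Aldoc (aldolase C), Nol3 and Cmc2, with r of 0.88, 0.86 and 0.84 and, within groups, 0.91, 0.86 and 0.84. For Scnn1b they were Ltc4s (leukotriene C4 synthase), Itm2b and Kcne1, each at 0.87, and 0.70, 0.53 and 0.81 within groups. These were picked as the highest among all kept genes, share libraries and depth, and are given as a description.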

How the data were processed

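Total RNA from mouse kidney was made into Illumina TruSeq libraries, per the labels' protocols. The submitters' processing notes name HISAT2 2.0.5 and the mm10 build. The counter, annotation release, strand setting and FPKM tool are not given in the sources used here. The deposited table holds 1 FPKM value per gene and library, made by the authors from read number, gene length and assigned reads. Depth was read from the FPKM steps. Of the gene IDs, 99.5% were in GENCODE M21, 91.0% at the same coordinates, and whole reads were not recovered for all genes, so no count test was run. Replicates were numbered in accession order, which pairs nothing. No libraries were identical (0 pairs), 1 line was empty, and 0 columns lacked a sample.

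Values were used as log2(FPKM + 1), which understates changes of low genes. A filter on the mean over libraries (0.5 FPKM or more) kept 15193 genes and removed 34391. All 4 groups entered 1 limma 3.58.1 fit in R 4.3.3 with a mean-variance trend, with two-sided p-values adjusted by Benjamini-Hochberg over all kept genes. A gene was called, and is said to have risen or fallen, when its adjusted p was under 0.05. The 5 comparisons were cisplatin in each genotype, genotype in each treatment, and the difference of responses. Single values, ratios and differences from segment markers were tested by an exact two-sided permutation test over libraries (scipy 1.17.1), with smallest p of 0.1 for 3 against 3, 0.0571 for 3 against 4 and 0.0286 for 4 against 4. The fit was tested on simulated data. The genes and the 17 lists were chosen with earlier results of these data known, and no list was tested as a set. Named were the 10 genes, Ripk4, up to 4 genes of smallest p per list in WT, and the 3 genes most like Aqp1, Aqp2 and Scnn1b. Other genes named (Wnk1, Nr3c2, Prss8, Adcy6, Prkaca and Sgk1) were chosen after their values were seen, and 1 counted gene is not reported here by name. The 22 alternatives were a pseudocount of 0.1, no filter, median-of-ratios scaling, quantile normalization, array weights, no trend, only the groups compared, each library left out, and both cisplatin libraries numbered 1 left out.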

Additional observations from a re-analysis of the deposited data

Results flagged for a closer look

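For Aqp11 the 2 genotypes differed in their response to cisplatin by a test of the difference itself. The cKO response was higher than the WT response by 0.87 on the log2 scale (limma adjusted p = 0.0342), with treated libraries below untreated ones in both genotypes. The call held in 9 of 21 alternatives. With all libraries, 6 of the 20 proximal tubule markers were called with a higher cKO response and 0 with a lower one. Over all genes the shares were 1.41% and 2.65%. The median difference of these markers was 1.21, against -0.08 over all genes. By Dixon's test, 0 of 52 sets of 4 treated libraries (the 10 genes, the 7 ratios and the 9 marker differences) held a value far from the rest, where chance would give about 1 in 20. These sets share libraries and values and are not independent. They do not hold the injury and red cell genes in which cKO cisplatin replicate 4 stood apart.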

How the results depend on the processing

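Of the 22 alternatives, none reversed a called result, and 51 uncalled values changed sign. The number of genes called among the 9 was 0 for cisplatin in cKO, but 3 with array weights (Aqp11, Scnn1a, Scnn1b) and 0 to 1 when single libraries were left out. For genotype after cisplatin it was 4, but 2 (Aqp1, Aqp11) with only the groups compared and 2 to 4 with single libraries left out, the low value coming without WT cisplatin replicate 3 or 4. It was 3 without the filter, 5 with quantile normalization (Scnn1g added), 6 with array weights (Scnn1g and Aqp3 added) and 5 without both cisplatin libraries numbered 1 (Aqp3 added). For the difference of responses it was 1 (Aqp11), but 0 without a filter, 0 with median-of-ratios scaling, 2 with quantile normalization, 3 with array weights, 2 without both cisplatin libraries numbered 1, and 0 to 2 with single libraries left out. Their causes were not tested. Aqp4 and Aqp11 after cisplatin in WT and Aqp1 and Aqp11 for genotype after cisplatin were called in 22 of 22. Median-of-ratios scaling moved the median log2 difference of all genes from 0.10 to -6.84e-05 for cisplatin in WT and from -0.11 to -2.83e-04 for genotype after cisplatin. Exact permutation with 3 libraries in a group cannot go below 0.0571, so the 4 against 4 results could not keep p = 0.0286 with a library left out. Avpr2 rested on 1 to 21 reads per library. No paired analysis was possible because the labels give no replicate numbers that groups share.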
